A study of Mus musculus with 10 samples.

Results

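The ASXL proteins and the partners of the BAP1 deubiquitinase were followed as 10 mouse genes, Asxl1, Asxl2, Asxl3, Bap1, Hcfc1, Ogt, Foxk1, Foxk2, Mbd5 and Mbd6, out of 47311 genes summed from the deposited transcripts. They were chosen by symbol, and all 10 were found, with 62 transcripts among them. Of the 10 genes, 9 passed the filter on low counts. Asxl3 did not, and it is described by its counts only.

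BAP1 removes ubiquitin from histone H2A, a mark that Polycomb complexes write at repressed genes. It needs an ASXL protein to be active: ASXL1, ASXL2 and ASXL3 bind it through the same domain, one at a time, and are the scaffolds of the Polycomb repressive deubiquitinase complex. The forkhead factors FOXK1 and FOXK2 bring the complex to DNA, HCF-1 and the sugar transferase OGT are stable parts of it, and the methyl-CpG-binding domain proteins MBD5 and MBD6 bind to it. Truncating mutations of ASXL1 and ASXL2 are found in myeloid leukaemia, ASXL2 mutations mostly in the form with the t(8;21) translocation.

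The RNA, selected by its polyA tail, came from mouse bone marrow cells taken as lineage-negative and Kit-positive. The groups carried full-length ASXL2 (2 libraries), mutant 1, mutant 2 or mutant 3 of ASXL2 (2 libraries each, pooled as 6 mutant libraries) or the empty vector (2 libraries). All were sorted for GFP, then expanded, and all grew in IMDM with serum, IL3, IL6 and SCF. The labels give no strain, age, promoter or species of the ASXL2 sequence, nor where the mutants end. Whether both libraries of a group stem from separate cultures is not stated, so the p-values cover only the spread among these libraries, and that spread may be technical. The labels assign each library to batch 1 or batch 2. For 4 mutant libraries the name of the deposited data gives a different mutant number from the label, and for 2 of these a different batch as well. By name, batch 2 and batch 1 hold 5 libraries each. The first principal component (41.2% of the variance) placed 10 of 10 libraries on the side of the batch by name and 8 of 10 on the side of the batch by label, so batch is given by name below. Totals were 52422686 to 79320702 estimated counts per library. Mast cell and basophil markers summed to between 51685 and 64796 TPM in full-length libraries, between 51860 and 56973 TPM in mutant libraries and between 56681 and 59908 TPM in empty-vector libraries. Progenitor markers summed to 3307 and 3484 TPM in full-length libraries and to between 3461 and 4263 TPM in mutant libraries, against 3940 and 3969 TPM in empty-vector libraries. Full-length and empty-vector libraries thus did not overlap, and neither did 29.5% of all single genes on CPM between these groups. The part of these marker sums in the results was not tested. Of 8 mast cell and basophil markers 8 had a mean of at least 1 TPM, as did 7 of 10 progenitor markers, with Flt3 and Slamf1 among those near 0, and 2 of 10 markers of other lineages. In such bulk RNA, fewer cells of a type and less RNA per cell cannot be told apart.

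The 9 detected genes covered a wide range of levels, with Asxl2 highest in every library that carried a construct. On the length-scaled TPM measure, and leaving Asxl2 aside, Ogt was the most abundant at 138 ± 55.8 TPM (SD, n = 10) and stood above the next gene, Mbd6, in 10 of 10 libraries. Mbd6 averaged 54.6 ± 16.2 TPM and was above Hcfc1 in 9 of 10 libraries. Hcfc1 at 36.2 ± 4.13 TPM and Bap1 at 34.5 ± 3.65 TPM could not be ordered on this sum, since Hcfc1 was higher in only 6 of 10 libraries. Below them came Foxk2 at 23.4 ± 1.47 TPM, Asxl1 at 20.1 ± 1.95 TPM, Foxk1 at 17.4 ± 1.35 TPM and Mbd5 at 11.6 ± 1.72 TPM. Each of these 4 genes was above the next in at least 9 of 10 libraries. Summing only protein-coding transcripts kept the order of the means, but then Hcfc1 was above Bap1 in 10 of 10 libraries, Foxk2 above Asxl1 in 8 and Asxl1 above Foxk1 in 7. The SDs of Ogt and Mbd6 are wide, and their libraries were divided by batch, as described further on.

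**Figure D1:**
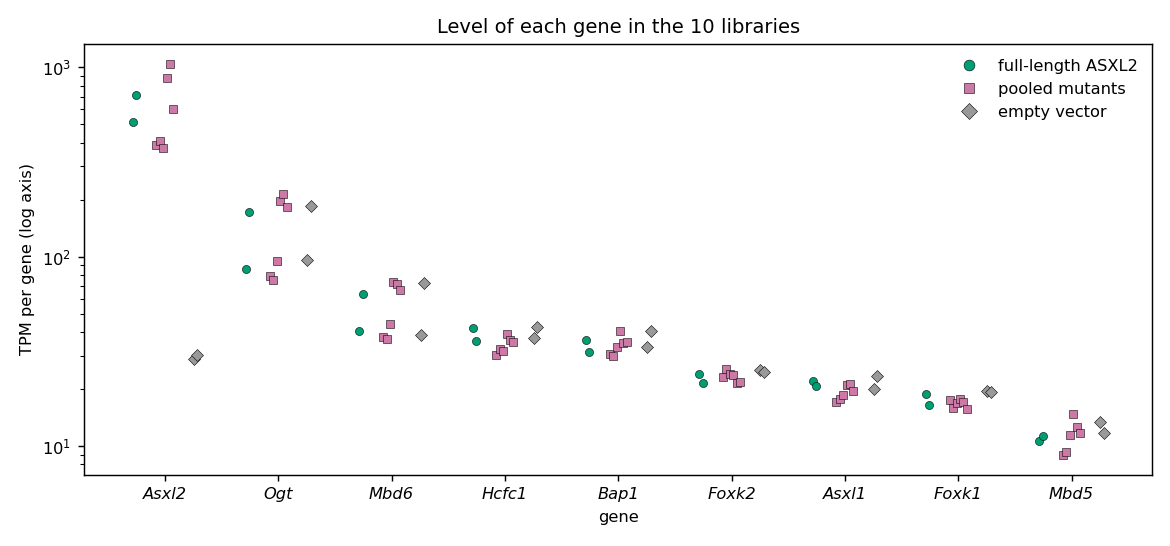
TPM per gene (log axis) of the 9 detected genes in the 10 libraries, 1 symbol per library, with full-length libraries left of mutant libraries and empty-vector libraries last. Asxl2 lies far higher in the construct libraries (374 to 1045 TPM) than in the empty-vector libraries (28.7 and 30.1 TPM). Foxk1 lies at 15.7 to 18.9 TPM, against 19.2 and 19.4 TPM, and was not called in either comparison with the empty vector. On CPM its groups overlapped, and the share of all genes so divided on TPM was not computed.

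Asxl2 is the gene that the constructs supply, so its level checks which libraries are labelled as carrying a construct. It cannot check the mutant number or the batch of a library. It had 514 and 709 TPM in the full-length libraries and from 374 to 1045 TPM, with a median of 505 TPM, in the 6 mutant libraries, against 28.7 and 30.1 TPM in the empty-vector libraries. All 8 construct libraries lay above both empty-vector libraries, and the full-length values fell inside the range of the mutants. On CPM, in either direction, 29.5% of all genes did not overlap between full-length and the empty vector and 14.4% between mutants and the empty vector. The share for all 8 together was not computed. In the edgeR fit of all genes, Asxl2 rose by 3.39 (log2, SE 0.31, adjusted p = 0.00158) with full-length ASXL2 and by 3.38 (SE 0.29, adjusted p = 0.000715) with the pooled mutants, both against the empty vector. Mutants against full-length gave -0.014 (log2, SE 0.23, adjusted p = 0.994). By label, mutant 1 showed 3.85 (log2, SE 0.17), mutant 2 showed 3.23 (SE 0.16) and mutant 3 showed 3.08 (SE 0.17) against the empty vector. The names of mutant 1 replicate 2, both mutant 2 libraries and mutant 3 replicate 1 give other mutant numbers. These values therefore do not rank the mutants. Both libraries labelled mutant 1 are of batch 1 by name and both labelled mutant 3 of batch 2. Asxl2 was higher in batch 1 among the construct libraries, so mutant number by label and batch by name cannot be told apart for these mutants. By name, each mutant number occurs in both batches, and no fit by the mutant number of the name was made here. Leaving out single libraries moved the estimate to between 3.05 and 3.83 for full-length and between 3.02 and 3.80 for the mutants.

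Asxl2 lies on chromosome 12 (GRCm38, 3426857 to 3506852, plus strand), and 7 of its transcripts are in the tables. The rise was carried by 2 of them. Asxl2-207 is a 4462-base transcript whose 12 exons hold the whole coding sequence of 4110 bases, with 97 bases after it. Asxl2-205 is a 1483-base protein-coding model that follows the same exons at first, contains an additional exon of 144 bases and is annotated without an end to its coding sequence. The other abundant transcript, Asxl2-202, also has a coding sequence of 4110 bases, but 4478 bases follow it. It further differs in exon 3, which is only 3 bases long and comes from another place in the genome. The 3 transcripts are shown across this exon (the end of exon 2 and the start of exon 4 in lower case, the 3-base exon in capitals, chr12:3445452-3445454 for the first pair and chr12:3450251-3450253 for Asxl2-202), since this is one of the stretches by which a read can be assigned.
Asxl2-207: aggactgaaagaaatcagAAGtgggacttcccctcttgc
Asxl2-205: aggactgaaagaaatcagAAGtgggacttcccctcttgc
Asxl2-202: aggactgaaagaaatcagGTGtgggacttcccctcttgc

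After exon 7 (ending at chr12:3474613) Asxl2-205 and Asxl2-207 part. The last 30 bases of exon 7 are in lower case and the first 30 bases that follow are in capitals, from the additional exon (chr12:3476026-3476169) in Asxl2-205 and from the next exon (chr12:3484445-3484608) in Asxl2-207. These sequences are from the GENCODE M21 transcripts on GRCm38.
Asxl2-205: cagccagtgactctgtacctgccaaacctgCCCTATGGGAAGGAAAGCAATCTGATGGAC
Asxl2-207: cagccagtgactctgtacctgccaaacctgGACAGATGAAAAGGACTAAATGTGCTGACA

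Asxl2-205 was at 322 and 458 TPM in full-length libraries and at 233 to 669 TPM in mutant libraries, against 8.72 and 9.55 TPM in empty-vector libraries. Asxl2-207 was at 179 and 239 TPM in full-length libraries and at 129 to 361 TPM in mutant libraries, against 6.37 and 7.63 TPM in empty-vector libraries. Both transcripts were therefore higher in each of the 8 construct libraries than in either empty-vector library. Asxl2-202 was at 9.55 and 10.4 TPM in full-length libraries and at 7.10 to 11.4 TPM in mutant libraries, against 8.31 and 10.2 TPM in empty-vector libraries, so the groups overlapped. Summed, Asxl2-205 and Asxl2-207 stood at 22.5 to 63.8 times the empty-vector mean in the construct libraries, and Asxl2-202 at 0.768 to 1.23 times. The share of Asxl2-202 in the gene's TPM was 1.66% ± 0.281 in full-length libraries (SD, n = 2) and 1.76% ± 0.504 in mutant libraries (n = 6), against 31.4% ± 3.41 in empty-vector libraries (n = 2). The ratio of Asxl2-205 to Asxl2-207 was 1.80 and 1.92 in full-length libraries and 1.69 to 1.89 in mutant libraries, against 1.14 and 1.50 in empty-vector libraries. It did not separate the full-length libraries from the mutants.

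In the edgeR fit across 52143 transcripts, of which 0.315% were called for full-length ASXL2 and 0.911% for the mutants against the empty vector, 2 of the 50 tested transcripts of these genes passed in each comparison. Both were Asxl2 transcripts. Asxl2-205 rose by 5.39 (log2, SE 0.34, adjusted p = 0.00534) with full-length ASXL2 and by 5.34 (SE 0.32, adjusted p = 0.00176) with the mutants. Asxl2-207 rose by 4.85 (SE 0.39, adjusted p = 0.00985) with full-length ASXL2 and by 4.85 (SE 0.37, adjusted p = 0.00376) with the mutants. Asxl2-202 differed by 0.15 (SE 0.075, adjusted p = 0.602) and 0.14 (SE 0.062, adjusted p = 0.417), neither past the threshold. Both calls of full-length ASXL2 and both of the mutants were lost when only libraries with matching names and labels were used, and those of full-length ASXL2 also with the 4 libraries compared alone. Kallisto, which made the estimates, divides reads among transcripts that share sequence, and how the construct's sequence compares with either transcript was not tested.

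**Figure D2:**
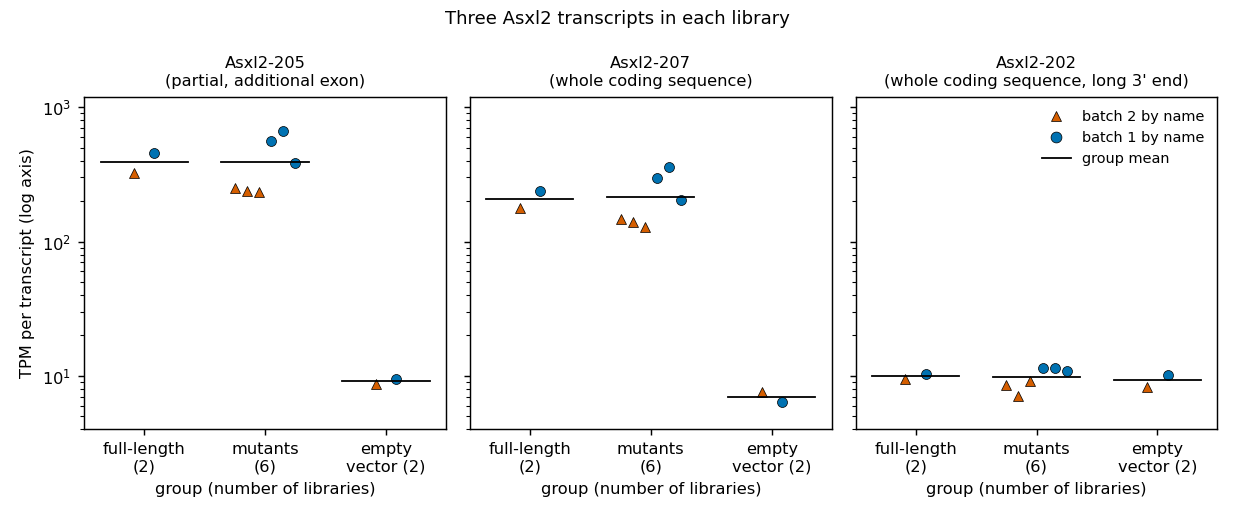
TPM per transcript (log axis) of Asxl2-205, Asxl2-207 and Asxl2-202 in each library, with full-length libraries left of mutants and the empty vector last, triangles for batch 2 and circles for batch 1 by name, and lines for group means. The first 2 transcripts lie at 129 to 669 TPM with a construct, and Asxl2-202 stays between 7.10 and 11.4 TPM in all 10 libraries.

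None of the other 8 tested genes passed in a comparison between constructs. With full-length ASXL2, set against the empty vector, 0 of 8 were called, where 5.07% of all 17810 tested genes were. With the mutants, set against the empty vector, 0 of 8 were called (10.8% of all genes). Between the mutants and full-length ASXL2 it was 0 of 8 as well (0.399% of all genes). At an unadjusted p under 0.05 the edgeR counts were 0, 3 and 1, and DESeq2 called Asxl1 alone, in the mutants against the empty vector. Their log2 differences lay between -0.10 and 0.032 for full-length ASXL2 and between -0.16 and 0.11 for the mutants, both against the empty vector, and between -0.20 and 0.12 between mutants and full-length, with SEs of 0.043 to 0.10. Medians over the 8 genes were -0.049, -0.020 and 0.037, beside -0.019, -0.0058 and 0.0092 over all genes. By label, 0 of 8 were called for mutant 1 (2.2% of all genes), mutant 2 (4.22%) and mutant 3 (5.79%), with smallest adjusted p of 0.419, 0.191 and 0.077; at an unadjusted p under 0.05 there were 0, 2 and 2. None of the 43 tested transcripts of these 8 genes passed in the 3 comparisons either, with smallest adjusted p of 0.388, 0.279 and 0.775. Of these transcripts 4, 3 and 2 had an unadjusted p under 0.05, and DESeq2 called 0.

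**Figure D3:**
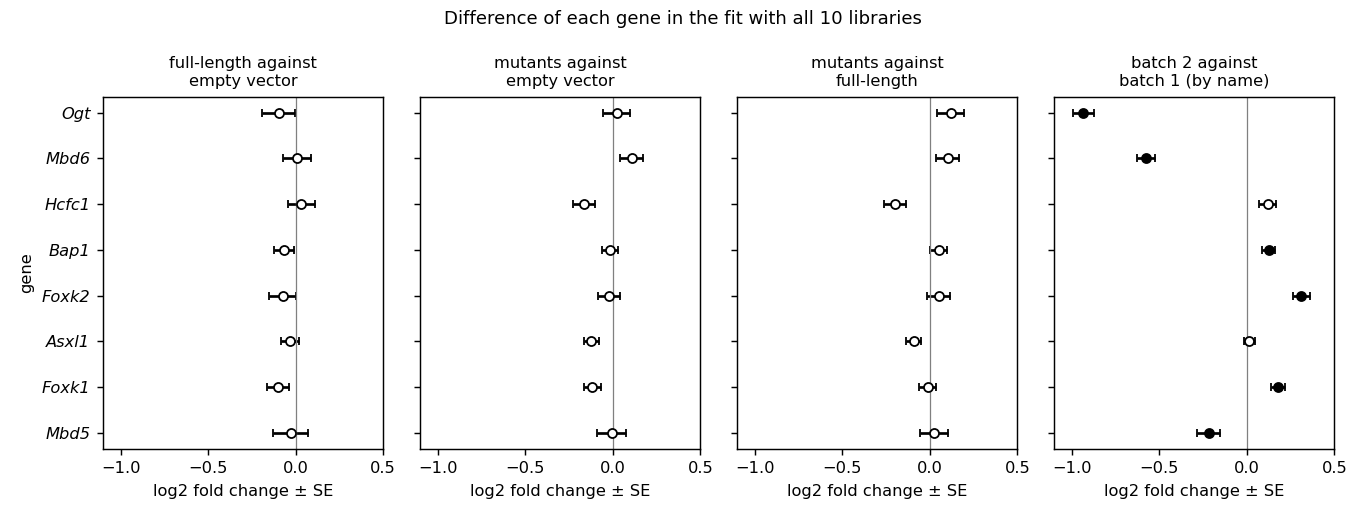
Log2 fold change with its SE for 8 genes in 4 comparisons of the edgeR fit, with filled symbols for an adjusted p under 0.05. In the first 3 panels each symbol is open and lies between -0.20 and 0.12, and in the batch panel 6 of 8 symbols are filled, with Ogt at -0.93.

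Asxl1, the paralogue of Asxl2 that is mutated most often in myeloid disease, had the smallest edgeR adjusted p of the 8 genes in the mutants against the empty vector. For full-length against the empty vector Foxk1 had the smallest (0.414), and for mutants against full-length Hcfc1 did (0.239). Asxl1 had 101 and 104 CPM in full-length libraries and 91.9 to 99.0 CPM (median 96.8 CPM) in mutant libraries, against 103 and 107 CPM in empty-vector libraries. On CPM the 6 mutant libraries lay below both full-length and both empty-vector libraries. Among all genes 14.4% likewise did not overlap between mutants and the empty vector and 5.69% between mutants and full-length, in either direction. On TPM Asxl1 overlapped, with 17.1 to 21.1 TPM in mutant libraries, 20.6 and 22.0 TPM in full-length libraries and 20.1 and 23.3 TPM in empty-vector libraries. The fitted difference was -0.12 (log2, SE 0.043, adjusted p = 0.095) in mutants, set against the empty vector, -0.091 (SE 0.043, adjusted p = 0.470) for mutants against full-length and -0.032 (SE 0.053, adjusted p = 0.817) for full-length against the empty vector. DESeq2 gave -0.13 with an adjusted p of 0.0399 for the first of these, and over all alternatives that p ranged from 0.0399 to 0.583. Its main transcript, Asxl1-201, is protein-coding and held 91.1% of its TPM.

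Asxl3, the remaining paralogue, was at or near 0 throughout. It had 1.53 and 2.77 estimated counts in full-length libraries and 0 in 4 of the mutant libraries, with 1.49 and 2.27 in the other two, against 0 in both empty-vector libraries. No library reached the 3 counts that a zero allows, which correspond to 0.0378 to 0.0572 CPM per library, so no fold is given. This limit covers counting error only. Both protein-coding transcripts of Asxl3 were at 0 in 10 of 10 libraries, and the few counts were on a transcript with a retained intron.

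Bap1, the catalytic subunit, had 70.1 and 79.3 CPM in full-length libraries and 70.5 to 81.8 CPM (median 77.6 CPM) in mutant libraries, against 77.1 and 79.0 CPM in empty-vector libraries. The groups overlapped. The differences were -0.066 (log2, SE 0.056, adjusted p = 0.588) for full-length and -0.016 (SE 0.046, adjusted p = 0.872) in mutants, both set against the empty vector. The coding transcript Bap1-201 held 77.0% of its TPM, and the remainder lay on models with retained introns or marked for nonsense-mediated decay.

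Foxk1, a forkhead DNA-binding partner, had 93.8 and 101 CPM in full-length libraries and 87.1 to 110 CPM in mutant libraries, against 98.8 and 111 CPM in empty-vector libraries. Within each batch by name, the 4 construct libraries lay below that batch's empty-vector library, by log2 differences of -0.15 to -0.0026 in batch 2 and -0.18 to -0.075 in batch 1. On TPM all 8 construct libraries, at 15.7 to 18.9 TPM, lay below both empty-vector libraries at 19.2 and 19.4 TPM. The share of all genes so divided on TPM was not computed. On CPM, 29.5% of all genes did not overlap between full-length and the empty vector and 14.4% between mutants and the empty vector, where Foxk1 did overlap. Its difference in the mutants against the empty vector was -0.12 (log2, SE 0.051, adjusted p = 0.179), which reached an adjusted p of 0.0396 (-0.15) when mutant 3 replicate 1 was left out. Foxk2, its close relative, had 73.3 and 82.8 CPM in full-length libraries and 68.8 to 98.0 CPM in mutant libraries, against 76.4 and 88.1 CPM in empty-vector libraries, a difference of -0.073 (SE 0.077) for full-length and -0.023 (SE 0.063) for the mutants. For both genes the CPM ranges of the full-length, mutant and empty-vector groups overlapped. In each, 1 coding transcript held most of the TPM, Foxk1-201 with 97.2% and Foxk2-201 with 87.8%.

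Hcfc1, which encodes HCF-1, the chromatin adaptor that OGT cleaves and glycosylates, had 206 and 236 CPM in full-length libraries and 178 to 217 CPM (median 191 CPM) in mutant libraries, against 212 and 220 CPM in empty-vector libraries. Its differences were -0.16 (log2, SE 0.063, adjusted p = 0.127) in mutants, set against the empty vector, and -0.20 (SE 0.063, adjusted p = 0.239) for the mutants against full-length. Neither passed under any alternative tried, where the adjusted p ranged from 0.0627 to 0.589 and from 0.094 to 1. Hcfc1-201 held 58.7% of its TPM, Hcfc1-202 24.5% and Hcfc1-203 11.2%, all protein-coding.

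Ogt, the enzyme that adds O-GlcNAc to BAP1, HCF-1 and many other nuclear proteins, had 253 and 507 CPM in full-length libraries and 255 to 590 CPM in mutant libraries, against 297 and 491 CPM in empty-vector libraries. Each group thus held a low and a high set, divided by batch. The fitted differences were -0.097 (log2, SE 0.094) for full-length and 0.022 (SE 0.077) for the mutants against the empty vector. Mbd6, which binds the complex through its methyl-CpG-binding domain, showed the same division, with 104 and 161 CPM in full-length libraries and 107 to 171 CPM in mutant libraries, against 99.4 and 166 CPM in empty-vector libraries. Its differences were 0.0059 (SE 0.080) and 0.11 (SE 0.066, adjusted p = 0.350). For mutant 3 by label alone it was 0.23 (SE 0.066, adjusted p = 0.077), not past the threshold, and the name of its replicate 1 gives mutant 2. Mbd5, its relative, had 19.6 and 25.8 CPM in full-length libraries and 20.0 to 25.8 CPM in mutant libraries, against 22.5 and 23.3 CPM in empty-vector libraries, and differed by -0.029 (SE 0.10) and -0.0050 (SE 0.082). Its TPM was spread over the processed transcripts Mbd5-209 (24.0%) and Mbd5-210 (17.9%) and the coding transcripts Mbd5-202 (17.3%) and Mbd5-203 (14.8%).

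Of the 9 tested genes, Asxl2 included, 7 were called for batch 2 against batch 1, a share to be read against the 52.4% of all genes called. The 4 genes Ogt, Mbd6, Mbd5 and Asxl2 fell (25.9% of all genes did), and the 3 genes Foxk2, Foxk1 and Bap1 rose (26.6% of all genes). Ogt had 253 to 297 CPM in the 5 libraries of batch 2, against 491 to 590 CPM in those of batch 1, a difference of -0.93 (log2, SE 0.060, adjusted p = 3.56e-06). Mbd6 had 99.4 to 121 CPM in batch 2, against 158 to 171 CPM in batch 1, a difference of -0.57 (SE 0.051, adjusted p = 1.64e-05). Neither gene had overlapping batches.

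Foxk2 was at 82.8 to 98.0 CPM in batch 2, against 68.8 to 76.4 CPM in batch 1, and differed by 0.31 (log2, SE 0.049, adjusted p = 0.000389). Foxk1 was at 99.7 to 111 CPM in batch 2, against 87.1 to 98.8 CPM in batch 1, a difference of 0.18 (SE 0.039, adjusted p = 0.00321). Bap1 was at 79.0 to 81.8 CPM in batch 2, against 70.1 to 77.1 CPM in batch 1, a difference of 0.12 (SE 0.036, adjusted p = 0.0131). On CPM these 3 genes also did not overlap, which makes 5 of 9, where 29.8% of all genes did not. On TPM their batches overlapped, and limma on log2(TPM + 1) gave 0.11 for Foxk2 (adjusted p = 0.193) and 0.037 for Foxk1 (adjusted p = 0.680), so that neither passed. With the offset for transcript length Bap1 was at 0.043 (adjusted p = 0.440), and with a filter of 1 CPM in 4 libraries at 0.067 (adjusted p = 0.0992). Divided by the batch of the label, 0 of 9 genes were without overlap, as against 0.561% of all genes.

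Mbd5 fell by 0.22 (log2, SE 0.064, adjusted p = 0.0141) with overlapping batches, and Asxl2 fell by 0.57 (SE 0.18, adjusted p = 0.0316). The call of Mbd5 was lost with the length offset (-0.016, adjusted p = 0.895) and without mutant 1 replicate 1, full-length replicate 1 or full-length replicate 2 (adjusted p = 0.0615 to 0.0898). That of Asxl2 was lost with no filter (adjusted p = 0.0932) and in 6 fits that each left out 1 construct library: either replicate of mutant 3 or of full-length, mutant 1 replicate 1 or mutant 2 replicate 2 (adjusted p = 0.0679 to 0.0804). With 5 groups by label in edgeR, the calls of Asxl2 (-0.24, adjusted p = 0.147), Mbd5 (-0.17, adjusted p = 0.156) and Bap1 (0.095, adjusted p = 0.155) were lost. With only libraries of matching name and label, edgeR lost those of Asxl2 (adjusted p = 0.159), Mbd5 (0.213), Bap1 (0.0834) and Foxk1 (0.0574). Among the construct libraries, Asxl2 was at 790 to 992 CPM in batch 2, against 1132 to 1892 CPM in batch 1. The empty-vector libraries were at 111 CPM in batch 2 and 107 CPM in batch 1. Asxl1 (0.015, adjusted p = 0.733) and Hcfc1 (0.12, adjusted p = 0.0626) did not pass in edgeR. Hcfc1 passed with DESeq2 (adjusted p = 0.0373), with DESeq2's size factors in edgeR (0.0454), with no filter (0.0210) and without either empty-vector library, mutant 1 replicate 1 or mutant 3 replicate 2 (0.0215 to 0.0370). On log2(TPM + 1) and log2(TPM + 0.1), where the median of all genes was -0.11 and -0.20 and not the -0.041 of the edgeR fit, the differences of Bap1 (-0.15 and -0.16) and Hcfc1 (-0.13 on both) had the other sign, and neither passed. With the batch of the label as block 0 of 9 genes were called by edgeR, as were 0 genes in all, with 1 of the 9 and 1555 of all at an unadjusted p under 0.05.

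**Figure D4:**
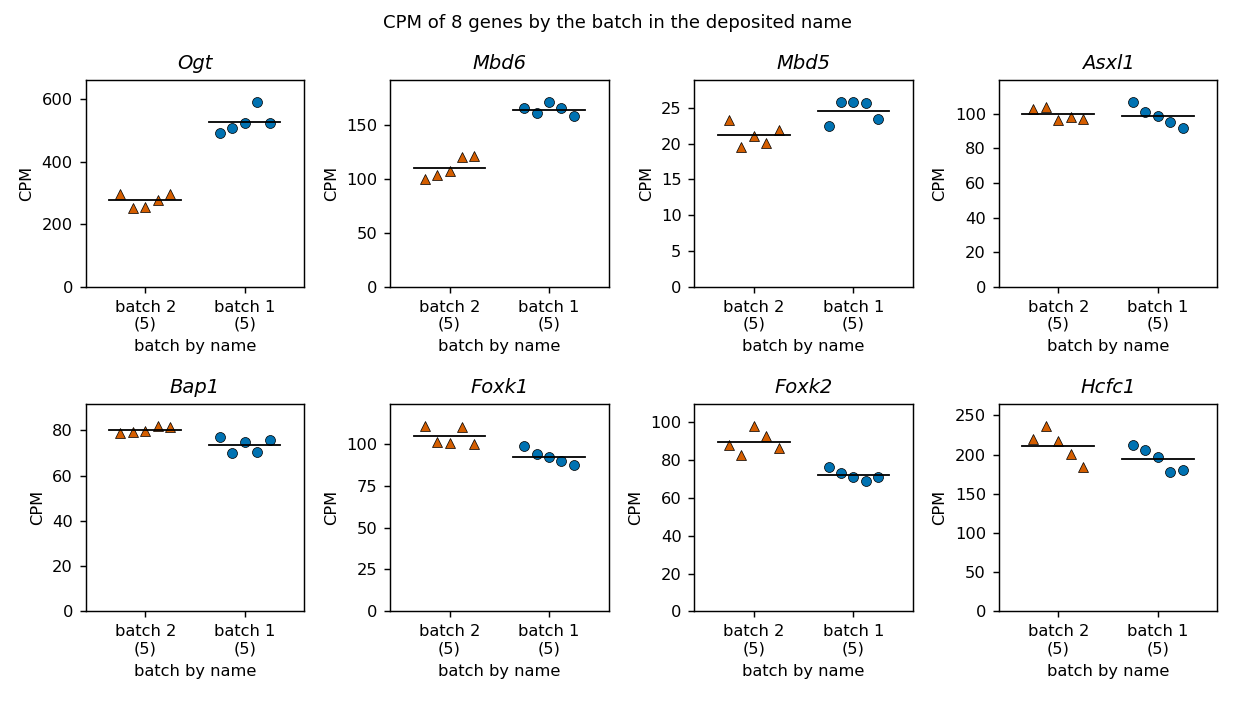
CPM (axis from 0) of 8 genes in the 5 libraries of batch 2 and, to their right, the 5 of batch 1, by the batch in the deposited name, with lines for means. Ogt lies at 253 to 297 CPM in batch 2 and at 491 to 590 CPM in batch 1.

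The lower Ogt of batch 2 comprised coding and intron-carrying transcripts. Ogt lies on chromosome X, and less of its TPM lay on the coding transcripts Ogt-201 (33.2%) and Ogt-202 (9.30%) together than on the others. The rest was mostly on Ogt-203 (27.1%), annotated as a processed transcript, and on Ogt-204 (23.8%), which keeps 2378 of the 3415 bases of intron 4. In human cells this region of OGT is known for an intron that is kept back in the nucleus and spliced when O-GlcNAc is low. The 2 outcomes at the end of exon 4 (chrX, plus strand, last exon base 101652208, GRCm38, GENCODE M21) are printed with 30 exon bases in lower case and the next 30 bases in capitals, which are intron in Ogt-204 (chrX:101652209-101654586) and exon 5 in Ogt-201 (chrX:101655624-101655740).
Ogt-204: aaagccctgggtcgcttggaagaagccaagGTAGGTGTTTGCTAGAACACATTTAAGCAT
Ogt-201: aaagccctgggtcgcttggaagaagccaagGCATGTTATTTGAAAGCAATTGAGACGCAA

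Ogt-204 was at 15.8 to 20.4 TPM in batch 2, against 45.6 to 58.6 TPM in batch 1, and fell by 1.20 (log2, SE 0.079, adjusted p = 0.000125). Ogt-203 fell by 1.03 (SE 0.090, adjusted p = 0.000221). Ogt-201 was at 26.3 to 33.2 TPM in batch 2, against 51.5 to 68.9 TPM in batch 1, and fell by 0.75 (SE 0.061, adjusted p = 0.000192). The retained-intron models made up 26.8 to 28.9% of Ogt in batch 2, against 30.9 to 33.4% in batch 1. For Bap1 they made up 9.26 to 12.4% in batch 2, against 15.9 to 22.9% in batch 1. Over all transcripts in the tables, retained-intron models held 3.05 to 3.75% of TPM in batch 2, against 4.37 to 4.98% in batch 1. None of these 3 ranges overlapped, and the part of this library-wide share in the results for Ogt and Bap1 was not tested.

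Of 50 tested transcripts of the 9 genes, 18 were called between batches, where 31.2% of all transcripts were called. Of these, 4 were higher and 14 lower in batch 2, and the shares of all transcripts by direction were not computed. Bap1-201, its coding transcript, rose by 0.31 (log2, SE 0.038, adjusted p = 0.000651) while Bap1-208, a retained-intron model, fell by 0.96 (SE 0.11, adjusted p = 0.000434) and Bap1-203, another, fell by 1.59 (SE 0.51, adjusted p = 0.0431). Of the Mbd6 transcripts, the coding models Mbd6-201 and Mbd6-202 fell by 0.61 (SE 0.074) and 0.30 (SE 0.076), and Mbd6-203, marked for nonsense-mediated decay, by 0.78 (SE 0.12). The less abundant coding models Mbd6-206 and Mbd6-207 fell by 0.69 (SE 0.14) and 1.71 (SE 0.26). Mbd5-201 (coding) and Mbd5-206 (nonsense-mediated decay), both below 1 TPM, fell by 0.66 (SE 0.18) and 1.15 (SE 0.21), Ogt-207 (retained intron) by 0.94 (SE 0.16) and Asxl2-205 by 0.59 (SE 0.18). Foxk1-201 and Foxk2-201 rose by 0.25 (SE 0.041) and 0.39 (SE 0.053). Hcfc1-202 rose by 0.40 (SE 0.094, adjusted p = 0.0119), although the gene's sum did not pass.

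**Figure D5:**
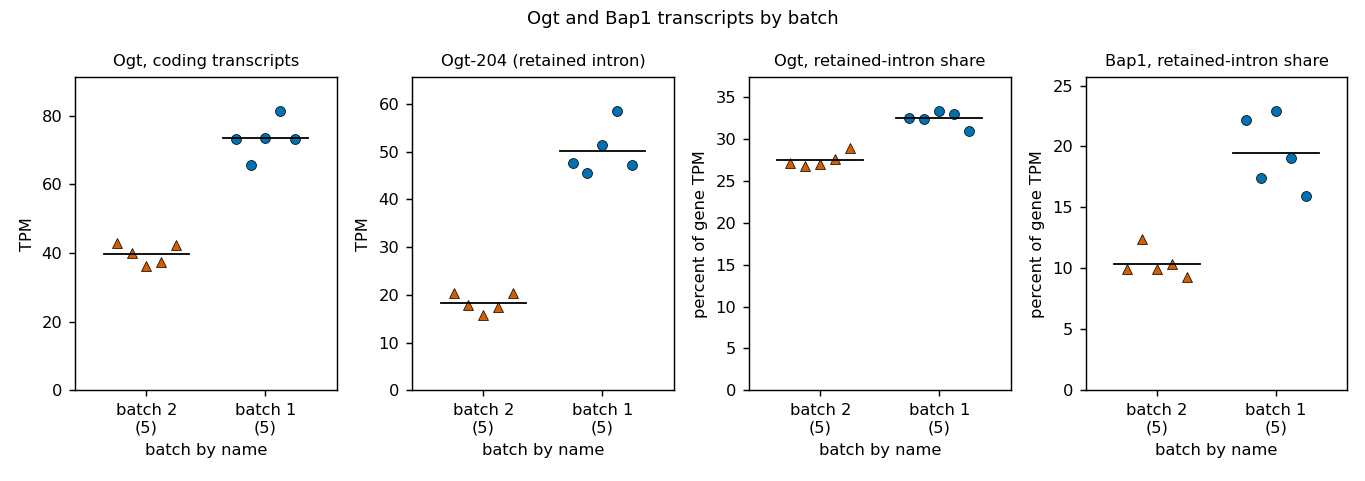
TPM of the coding Ogt transcripts and of Ogt-204, and the retained-intron share of Ogt and Bap1 in percent of each gene's TPM, with 5 libraries of batch 2 left of 5 of batch 1 by name and lines for means. In each panel the batches do not overlap, for example 15.8 to 20.4 TPM in batch 2 and 45.6 to 58.6 TPM in batch 1 for Ogt-204.

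The profile of Asxl2 over the 10 libraries was set against those of 17809 other genes by the root-mean-square difference of standardised log2 CPM. The 5 nearest were Dirc2 (0.203), Apol7b (0.210), Arhgef5 (0.215), Fam131a (0.216) and Plekha8 (0.225), chosen by this distance, so that their higher levels with a construct come with the choice. Arhgef5, a guanine nucleotide exchange factor, was at 16.8 and 18.3 CPM in full-length libraries and at 15.3 to 25.4 CPM in mutant libraries, against 3.90 and 4.11 CPM in empty-vector libraries. None of the complex genes was near: Mbd6 ranked 5094, Ogt 6150 and Mbd5 6200, and Asxl1 ranked 16851, the farthest of the 8.

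Lists of further pathway genes are read against all tested genes, of which 3.85% rose and 1.22% fell with full-length ASXL2, 6.82% rose and 3.99% fell with the mutants, and 0.185% were higher and 0.213% lower in the mutants than with full-length ASXL2. Of 14 tested genes for other proteins that bind BAP1 or ASXL proteins, 2 rose with full-length ASXL2 and 2 with the mutants, none fell, and the medians were -0.022 and -0.017. Rxra, a retinoid X receptor, was at 33.7 and 38.0 CPM in full-length libraries and at 25.6 to 34.5 CPM in mutant libraries, against 13.8 and 15.7 CPM in empty-vector libraries. It rose by 1.28 (log2, SE 0.14, adjusted p = 0.00102) with full-length ASXL2 and by 1.06 (SE 0.12, adjusted p = 0.000715) with the mutants. Ncoa1, a nuclear receptor coactivator, was low, at 2.56 and 3.56 CPM in full-length libraries and 2.43 to 3.60 CPM in mutant libraries, against 0.978 and 1.24 CPM in empty-vector libraries. It rose by 1.45 (SE 0.16, adjusted p = 0.000764, or 0.0565 without the batch block) and 1.42 (SE 0.14, adjusted p = 0.000215).

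Of 13 genes of the complexes that write the mark, 1 rose with full-length ASXL2 and 4 with the mutants, with medians of 0.049 and 0.076. In the mutants against the empty vector, Pcgf5 rose by 0.64 (SE 0.093, adjusted p = 0.00186), Rybp by 0.41 (SE 0.055, adjusted p = 0.00125), Bcorl1 by 0.30 (SE 0.080, adjusted p = 0.0349) and Kdm2b by 0.22 (SE 0.048, adjusted p = 0.0142). Without the batch block Pcgf5 stayed past the threshold (adjusted p = 0.0234), and Rybp (0.0589), Kdm2b (0.128) and Bcorl1 (0.329) did not. Kdm2b was also the gene that rose with full-length ASXL2, by 0.25 (SE 0.058, adjusted p = 0.0338, or 0.248 without the block).

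In 4 further lists the calls rested on the batch block, and each of the following adjusted p was above 0.05 without it. Of 10 other H2A deubiquitinases and related enzymes, Usp22 alone rose, by 0.44 (SE 0.11, adjusted p = 0.0405) with full-length ASXL2 and 0.36 (SE 0.089, adjusted p = 0.0284) with the mutants. Of 9 genes of O-GlcNAc cycling and its donor, Eogt rose by 0.47 with full-length ASXL2 (SE 0.099, adjusted p = 0.0214) and by 0.47 with the mutants (SE 0.083, adjusted p = 0.00526). Gfpt2, at 0.522 and 1.32 CPM in full-length libraries, against 1.46 and 2.13 CPM in empty-vector libraries, fell by 1.07 (SE 0.23, adjusted p = 0.0243), and in the mutants it was higher than with full-length ASXL2 by 1.13 (SE 0.20, adjusted p = 0.043). Of 15 HCF-1 partners, E2f4 fell with the mutants by 0.21 (SE 0.045, adjusted p = 0.0144). Of 18 other MBD and forkhead genes, Foxp4 rose by 0.63 (SE 0.094, adjusted p = 0.00206) and Foxo1 by 0.31 (SE 0.085, adjusted p = 0.0389) with the mutants. Of 13 HOX-A cluster genes and cofactors, known targets of ASXL1, 4 passed the filter on low counts and 0 were called in the 3 comparisons by edgeR or DESeq2, with 1, 1 and 0 at an unadjusted edgeR p under 0.05.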

How the data were processed

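PolyA RNA of 10 libraries was analysed. For each of 115088 transcripts the deposited tables hold estimated counts and TPM, a transcript's share of the library scaled by its length, under kallisto's column names, per the file headers. Kallisto and DESeq2 are named without versions, with build mm10, per the submitters' processing notes. The transcript index is not given in the sources used here, and kallisto shares reads among similar transcripts without a stated strand setting.

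Transcripts were summed per gene through GENCODE M21 of GRCm38 (114200 matched, 888 left out). Summed estimated counts were rounded and tested in R 4.3.3 with edgeR 4.0.16 (robust quasi-likelihood, TMM scaling, default filter of 10 counts). All 10 libraries entered 1 fit with 3 classes (full-length, pooled mutants, empty vector) and the batch of the deposited name as block. Single mutants came from a fit with 5 groups by label. P-values were adjusted by Benjamini-Hochberg over all genes or all transcripts tested, with a threshold of 0.05. SEs were taken from the log2 fold change and the F statistic. CPM values are TMM-scaled. The difference of the construct effect between batches was tested by an interaction term in edgeR, added after the values were seen. DESeq2 1.42.0 and limma 3.58.1 on log2(TPM + 1) and log2(TPM + 0.1), which understate the change of low genes, were alternatives. Python 3.11.15 with numpy 2.4.6, pandas 2.3.3 and matplotlib 3.10.9 made the tables and figures. The scripts were tested on simulated counts.

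The genes, lists and tests were chosen with earlier results of these data known. Named are the 10 genes, up to 4 called genes per list of 7 lists, the 5 profiles nearest to Asxl2, and transcripts with at least 10% of a gene's TPM or called. In the labels the replicate number is a batch. The main fit did not use this number as block but the batch of the deposited name, and the batch of the label was an alternative. Same-numbered libraries had deviations from their group means that correlated at 0.491 (empty vector and mutant 2), 0.525 (full-length and empty vector) and 0.578 (mutant 2 and full-length), and at -0.145 to 0.0169 in the other pairs.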

Additional observations from a re-analysis of the deposited data

Results flagged for a closer look

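For 2 genes, all 4 construct libraries of one batch lay on one side of that batch's empty-vector library and all 4 of the other batch on the opposite side. These 2 genes were picked for this pattern, and the share of all tested genes that show it was not computed. Each batch by name has 1 empty-vector library, so 1 library sets each direction. For Bap1 the median log2 CPM of constructs minus empty vector was 0.025 in batch 2 (0.0057 to 0.049) and -0.086 in batch 1 (-0.14 to -0.025). For Mbd5 it was -0.18 in batch 2 (-0.25 to -0.089) and 0.20 in batch 1 (0.057 to 0.20). An interaction term in edgeR over all genes, batch 2 minus batch 1, gave 0.11 (log2, SE 0.085, adjusted p = 0.830) for Bap1 and -0.34 (SE 0.12, adjusted p = 0.539) for Mbd5, so neither difference passed. The same term gave -0.76 (SE 0.34, adjusted p = 0.675) for Asxl2 and called 0 of 17810 genes in edgeR. Unadjusted, 1329 had a p under 0.05, and no other tool was run on it.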

How the results depend on the processing

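The rise of Asxl2 against the empty vector kept its direction and its side of the threshold under all alternatives tried (adjusted p up to 0.0193 for full-length and 0.0144 for the mutants). Its difference in the mutants against full-length ASXL2 changed sign without passing: 0.016 with no replicate block, 0.023 with the replicate block by the batch of the label, and from -0.13 to 0.044 with single libraries left out. Calls among the other 8 genes stayed at 0 except for 1 with DESeq2 and 0 to 1 without single libraries (1 without mutant 3 replicate 1), both in the mutants against the empty vector. The 2 transcripts called for full-length ASXL2 became 0 with the libraries compared alone, 0 with only libraries of matching name and label, and 1 to 2 without single libraries (1 without full-length replicate 2). The 2 called for the mutants became 0 with matching libraries only, where fewer libraries enter. Calls between batches, 7 of 9, became 0 with the replicate block by label, 4 with 5 groups, 3 with matching libraries, and 3 and 3 with limma on log2(TPM + 1) and log2(TPM + 0.1). Without single libraries they ran from 5 to 8. Other small differences also changed sign, all without passing in either fit except Bap1 between batches, which passed in edgeR. For full-length against the empty vector these were, with the length offset, Asxl1 (0.020), Hcfc1 (-8.05e-05) and Mbd6 (-0.025). With limma they were Hcfc1 (-0.041 and -0.042) and Mbd6 (-0.065 and -0.066), and with no replicate block Mbd6 (-0.0039). With single libraries left out, Asxl1 ran from -0.062 to 0.013, Hcfc1 from -0.027 to 0.076, Ogt from -0.22 to 0.052, Mbd5 from -0.19 to 0.16 and Mbd6 from -0.076 to 0.11. For the mutants against the empty vector they were Mbd5 with no replicate block (0.0065), with the label block (0.0055), with the filter of 1 CPM in 4 libraries (0.0023) and with matching libraries (0.052), where Bap1 was at 0.0023. With limma they were Ogt (-0.059 and -0.059) and Mbd6 (-0.011 and -0.011). With single libraries left out, Bap1 ran from -0.058 to 0.036, Ogt from -0.11 to 0.17, Foxk2 from -0.076 to 0.040 and Mbd5 from -0.17 to 0.18. For the mutants against full-length, Foxk1 ran from -0.060 to 0.026, Foxk2 from -0.036 to 0.13 and Mbd5 from -0.086 to 0.13. Between batches, Asxl1 changed sign with the label block (-0.0020), the filter of 1 CPM in 4 libraries (-0.042) and limma (-0.15 and -0.15), and Bap1 (-0.15 and -0.16) and Hcfc1 (-0.13 and -0.13) with limma. The causes were not tested. Counts over all genes were 903 for full-length against the empty vector, 1925 for the mutants against the empty vector and 71 for the mutants against full-length. In that order they were 134, 311 and 0 with no replicate block and 129, 335 and 1 with the label block. With matching libraries they were 446, 567 and 7, beside 5268 and not 9338 between batches. With limma they were 259 and 321, 707 and 829, and 23 and 17. DESeq2 gave 1517 and 499 for the first and the third, no filter 183 for the third, and the libraries compared alone 427 for the first. Leaving out single libraries gave 285 to 1047, 494 to 2042 and 2 to 111, with the lowest counts without full-length replicate 2, empty vector replicate 1 and full-length replicate 2. Genes with few counts, such as Asxl3, are limited by depth.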
